A study of Mus musculus with 3 samples.

Results

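The 7 genes that mark the granule neurons of the dentate gyrus and were followed here in hippocampal RNA are Prox1, C1ql2, C1ql3, Dsp, Trpc6, Tdo2 and Calb1. They were taken by gene name from a table of 54532 genes, and all 7 were found. The hippocampus was taken from mice aged 10 months on a C57BL/6 background. The 3 genotypes were wild type (WT), PS19, and PS19 carrying 1 lost allele of Zbp1 (PS19 Zbp1+/-), with 1 library each. PS19 mice carry a human mutant tau transgene under the mouse prion protein (Prnp) promoter, which is active in neurons throughout the brain and not in granule neurons alone. The protein Zbp1 binds Z-form nucleic acids. Neither the animals' sex nor any pooling of animals is stated in the labels. With 1 library per genotype there was no replicate and no test, and every difference below is one between libraries.

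Granule neurons form the densely packed cell layer of the dentate gyrus, receive the main cortical input to the hippocampus and send mossy fibre axons to CA3 pyramidal neurons. Prox1 is the homeodomain transcription factor that sets and keeps granule neuron identity. C1ql2 and C1ql3 are secreted synaptic organisers of the mossy fibre synapse, Trpc6 is a cation channel subunit, Calb1 (calbindin) buffers calcium, Dsp (desmoplakin) links desmosomes to intermediate filaments, and Tdo2 begins the breakdown of tryptophan along the kynurenine pathway. None of these genes is restricted to granule neurons. Calb1 is also made by CA1 pyramidal neurons and interneurons, Prox1 by some interneurons, and Dsp by epithelia and meninges. Loss of calbindin from granule neurons is a known feature of mouse models of Alzheimer's disease and of epilepsy.

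The libraries were of like depth, with 16400328 to 17109734 reads recovered from the deposited FPKM values (fragments per kilobase of gene, relative to library size). In PS19 Zbp1+/- the library size implied by these values (15826984) was below the recovered reads (17109734). In WT (17253479) and PS19 (17287957) it was above them. Ratios per library size of PS19 Zbp1+/- over another library are thus higher than ratios per total reads. The targeted gene, Zbp1, was covered by 5 (WT), 91 (PS19) and 0 (PS19 Zbp1+/-) reads, where a heterozygous label would leave 1 allele. Xist reads were at 0 in PS19 Zbp1+/- alone, and the 4 Y-linked genes examined had reads in that library alone, so both comparisons that use it are also comparisons between sexes. Pan-neuronal genes (10 genes, among them Rbfox3 and Snap25) were abundant in every library, with a summed FPKM of 1142 to 1668. The 8 choroid plexus genes examined, led by Ttr, summed to an FPKM of 3128 (WT), 1915 (PS19) and 10.8 (PS19 Zbp1+/-), and none of them was at 0 reads.

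The markers differed in abundance by almost 2 orders of magnitude on the FPKM scale, which is per gene length and allows genes to be ranked. In WT the order of levels from the highest was C1ql2 (51.0), Calb1 (24.6), C1ql3 (18.8), Prox1 (8.76), Trpc6 (4.89), Dsp (3.86) and Tdo2 (0.732). The exact Poisson 95% intervals of neighbours in this order did not overlap in WT. In PS19 those of Calb1 (10.9 to 12.3) and C1ql3 (11.6 to 13.7) overlapped, so the order of these genes was not resolved there, and Dsp stood above Trpc6. PS19 Zbp1+/- had the same order as WT, at 37.5, 27.3, 19.3, 5.20, 2.87, 1.28 and 0.765, with no overlap between neighbours. C1ql2 alone made up 45.3% (WT), 44.9% (PS19) and 39.8% (PS19 Zbp1+/-) of the summed FPKM of the 7 genes. That sum was 113, 75.6 and 94.2 in the same order, so PS19 was lowest. Every interval given covers the error of counting alone, and without molecular identifiers the reads are not separate molecules.

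**Figure D1:**
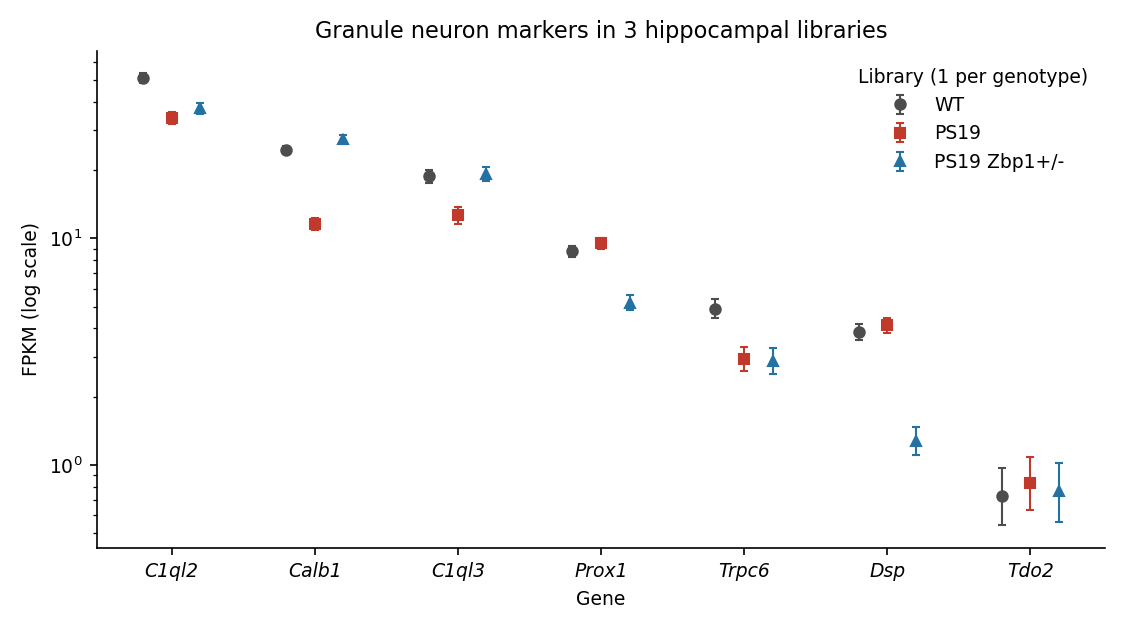
FPKM (log scale) of the 7 granule neuron markers in the WT, PS19 and PS19 Zbp1+/- libraries; each point is 1 library and its bar is the exact Poisson 95% interval. C1ql2, Calb1 and C1ql3 are lower in PS19 than in WT, whereas Prox1 and Dsp are lowest in PS19 Zbp1+/-.

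PS19 was compared with WT to ask how the tau transgene changes the hippocampus. The markers did not move as a block. Calb1, C1ql2, C1ql3 and Trpc6 were lower in PS19, by 1.49-fold to 2.12-fold in reads per library size, while Prox1, Dsp and Tdo2 lay within 1.15-fold of WT. The median difference of log2(FPKM + 1) over the 7 genes was -0.54, and -0.56 over the 6 that reached an FPKM of 1. Over the 12703 protein-coding genes that reached an FPKM of 1 in WT or PS19 it was -0.03. The log2(FPKM + 1) scale understates changes of weakly expressed genes. Fewer granule neurons, less RNA of these genes per neuron and a changed share of other cells cannot be told apart in bulk tissue. In this comparison the 8 oligodendrocyte genes had a median of 0.81 and the 8 microglia genes of 1.33, and 10 of 10 pan-neuronal genes were lower.

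Calb1 (ENSMUSG00000028222; GRCm38 chromosome 4, 15881264 to 15908064, plus strand) was covered by 2053 (WT), 971 (PS19) and 2096 (PS19 Zbp1+/-) reads, or FPKM values of 24.6, 11.6 and 27.3. PS19 was the low library, and the other libraries lay close together. Calb1 was 2.12-fold lower in PS19 than in WT (exact Clopper-Pearson 95% interval 1.96 to 2.29), a difference of -1.02 on the log2(FPKM + 1) scale. Of all genes compared, 0.276% had a difference that low or lower. Calb1 was the 1 marker past 2-fold in this comparison, among 6 that reached an FPKM of 1; 0.291% of all genes compared were at least 2-fold lower and 2.20% at least 2-fold higher (2.50% in either direction). It sat at the threshold, and was at -0.94 after rescaling to TPM, -0.99 after scaling by total reads, -0.96 after correction for GC content and length, and -0.73 relative to pan-neuronal genes.

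The synaptic organisers were also lower in PS19. C1ql2 (ENSMUSG00000036907; chromosome 1, 120340582 to 120343174, plus strand) was covered by 1761 (WT), 1175 (PS19) and 1187 (PS19 Zbp1+/-) reads. WT was the high library, and the ratio of PS19 to WT was 0.666 (0.618 to 0.717). C1ql3 (ENSMUSG00000049630; chromosome 2, 13003457 to 13011806, minus strand) had 822, 553 and 773 reads in the same order of libraries. Here PS19 was the low library, 1.49-fold below WT (1.34 to 1.66). The differences of these paralogs on the log2 scale were -0.57 and -0.54, and 2.94% and 3.68% of all genes compared lay as low or lower. Relative to pan-neuronal genes they were smaller, at -0.26 and -0.24.

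The channel subunit Trpc6 (ENSMUSG00000031997; chromosome 9, 8544142 to 8680741, plus strand) followed the pattern of C1ql2, with 427 (WT), 258 (PS19) and 230 (PS19 Zbp1+/-) reads. It was 1.66-fold lower in PS19 than in WT (1.42 to 1.94), with a log2 difference of -0.58 that was -0.33 relative to pan-neuronal genes. WT was again the high library.

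The identity factor Prox1 (ENSMUSG00000010175; chromosome 1, 190118035 to 190170714, minus strand) did not share the decrease. It was covered by 1268 (WT), 1379 (PS19) and 690 (PS19 Zbp1+/-) reads. The ratio of PS19 to WT was 1.09 (1.005 to 1.17), and its log2 difference of 0.11 was -0.01 once corrected for GC content and length. Dsp (ENSMUSG00000054889; chromosome 13, 38151294 to 38198577, plus strand) had 644, 690 and 195 reads, with a ratio of PS19 to WT of 1.07 (0.959 to 1.19). Its difference of 0.08 turned to -0.10 under the same correction. Tdo2 (ENSMUSG00000028011; chromosome 3, 81957090 to 81976202, minus strand) had 49, 56 and 47 reads, and the ratio of 1.14 (0.763 to 1.71) means that a difference was not detectable at this depth. Tdo2 was below an FPKM of 1 in every library and so was not among the genes compared.

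**Figure D2:**
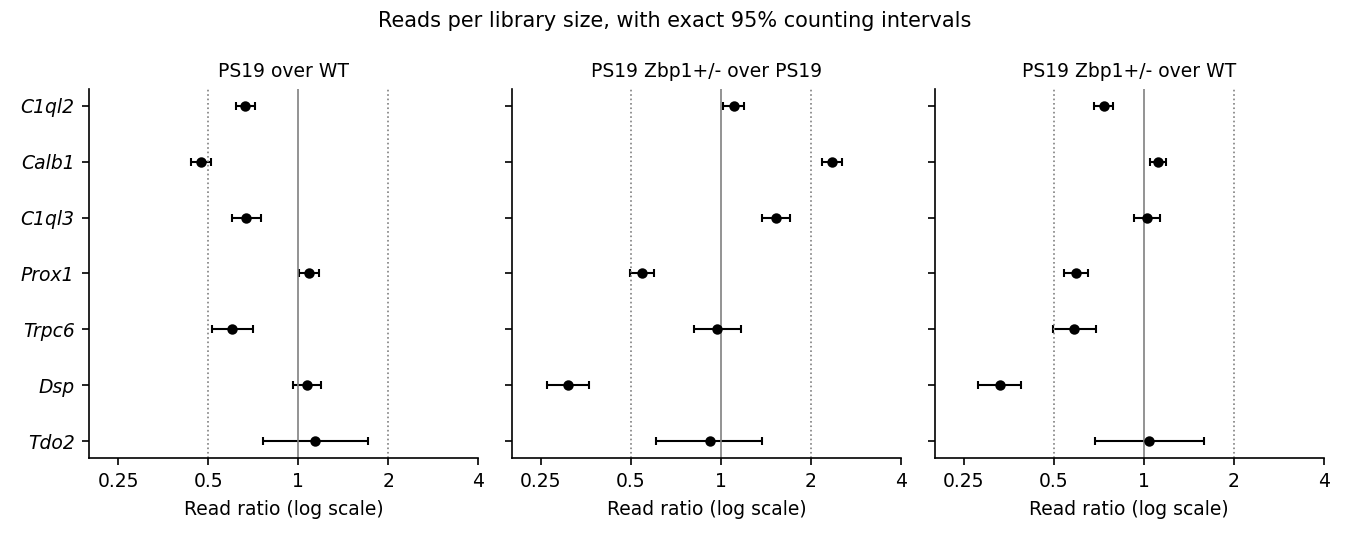
Ratio of reads per library size for each marker (log scale) in the 3 comparisons, with exact Clopper-Pearson 95% intervals; the solid line marks equal levels and the dotted lines 2-fold. Calb1 lies at 0.472 in PS19 over WT and at 2.36 in PS19 Zbp1+/- over PS19, and Dsp lies at 0.309 in the latter.

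PS19 Zbp1+/- was compared with PS19 to ask what lower Zbp1 dosage changes in the presence of the transgene. The markers moved in opposite directions. Calb1 and C1ql3 were higher in PS19 Zbp1+/-, Prox1 and Dsp were lower, and the ratios of Trpc6 and Tdo2 had intervals that include equality under the deposited scaling. This comparison shares the PS19 library with the one above, so a value that is low in PS19 by chance lowers the difference there and raises it here. The median over the 7 genes was -0.03, and 0.05 over the 6 that reached an FPKM of 1, against 0.04 over 12772 genes compared.

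Relative to PS19, Calb1 was 2.36-fold higher (2.18 to 2.55), with a log2 difference of 1.17, and 1.10% of all genes compared were as high or higher. C1ql3 was 1.53-fold higher (1.37 to 1.71), with a difference of 0.57 that was 0.40 with total reads, 0.32 with TPM and 0.06 relative to pan-neuronal genes. For C1ql2 the ratio was 1.10 (1.02 to 1.20), and its direction depended on the scaling: the log2 difference of 0.14 turned to -0.14 with TPM, -0.05 with total reads, -0.09 after correction for GC content and length, and -0.39 relative to pan-neuronal genes. The paralogs thus differed in this comparison, with C1ql3 further above PS19 than C1ql2.

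Relative to PS19, Dsp was 3.24-fold lower (2.76 to 3.82), a log2 difference of -1.17. Prox1 was 1.83-fold lower (1.67 to 2.01), a difference of -0.76, which fell short of 2-fold. Calb1 was thus the 1 marker at least 2-fold higher and Dsp the 1 marker at least 2-fold lower among 6 that reached an FPKM of 1; over all genes compared 7.16% were past 2-fold, 2.0% higher and 5.16% lower. The genes past 2-fold depended on the scaling. With TPM they were Prox1 (-1.11) and Dsp (-1.75), and relative to pan-neuronal genes Prox1 (-1.24) and Dsp (-1.56), while Calb1 was at 0.94 and 0.65. With total reads Calb1 was at 0.99. The pseudocount of 1 weighs less under TPM, and without rescaling a pseudocount of 0.1 put Dsp at -1.62. Trpc6 had a ratio of 0.974 (0.812 to 1.17) and Tdo2 of 0.917 (0.609 to 1.38), and both intervals include equality. For Trpc6 this depended on the scaling, since its log2 difference of -0.03 was -0.30 with TPM and -0.44 relative to pan-neuronal genes. Whether choroid plexus RNA, which was much lower in the PS19 Zbp1+/- library (8 of 8 genes at least 2-fold lower, from -1.78 to -7.84, the latter for Ttr), has a part in the Dsp reads was not tested. The sex of the animals differed in the same way and cannot be told apart from genotype.

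Against WT, the PS19 Zbp1+/- library split the markers again. Calb1 had a ratio of 1.11 (1.05 to 1.18) and C1ql3 of 1.03 (0.928 to 1.13). Their log2 differences of 0.15 and 0.03 turned to -0.07 and -0.18 relative to pan-neuronal genes. With total reads they were -0.001 and -0.11. C1ql2 was 1.36-fold lower (1.26 to 1.47), Trpc6 1.70-fold lower (1.45 to 2.01) and Prox1 1.69-fold lower (1.54 to 1.85). Dsp was 3.03-fold lower (2.58 to 3.57), the 1 marker past 2-fold, where 3.35% of 12436 genes were past 2-fold and 2.28% at least 2-fold lower. Tdo2 had a ratio of 1.05 (0.686 to 1.59). Under the deposited scaling these patterns stood side by side: Calb1 and C1ql3 were low in PS19 alone, C1ql2 and Trpc6 were low in both libraries with the transgene, and Prox1 and Dsp were low in PS19 Zbp1+/- alone. Relative to pan-neuronal genes C1ql3 was no longer low in PS19 alone, at -0.24 in PS19 and -0.18 in PS19 Zbp1+/- against WT.

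Genes that overlap a marker on the other strand were few and weakly covered. In the order WT, PS19, PS19 Zbp1+/-, Prox1os, antisense to Prox1, had 73, 59 and 29 reads, and Gm28172 had at most 7. Gm37824 and Gm37811, which overlap C1ql3, had at most 65 and 13 reads. Gm32014, which overlaps Trpc6, had 21, 15 and 4 reads. Strandedness of the counting is not given in the sources used here, so reads of such pairs cannot be told apart.

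Promoter sequence is shown for the markers that represent the pattern low in both transgenic libraries (C1ql2, Trpc6) and the pattern low in PS19 Zbp1+/- (Prox1, Dsp), to set their composition side by side. Each is the 250 bases before a RefSeq start site on GRCm38.p6, 5′ to 3′ on the gene's strand: chr1:120340332-120340581 (plus), chr9:8543892-8544141 (plus), chr1:190170828-190171077 (minus, the more distal of the Prox1 starts in the table) and chr13:38151044-38151293 (plus). RefSeq promoters were found for 6 of the 7 markers, the exception being Calb1. Capitals mark E-boxes (CANNTG, the core bound by basic helix-loop-helix factors) and GC boxes (GGGCGG or its reverse complement).
C1ql2: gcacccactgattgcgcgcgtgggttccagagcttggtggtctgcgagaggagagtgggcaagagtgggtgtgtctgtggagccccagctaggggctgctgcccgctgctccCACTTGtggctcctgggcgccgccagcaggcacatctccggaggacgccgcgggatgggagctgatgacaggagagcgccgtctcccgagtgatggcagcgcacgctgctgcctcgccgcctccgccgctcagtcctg
Trpc6: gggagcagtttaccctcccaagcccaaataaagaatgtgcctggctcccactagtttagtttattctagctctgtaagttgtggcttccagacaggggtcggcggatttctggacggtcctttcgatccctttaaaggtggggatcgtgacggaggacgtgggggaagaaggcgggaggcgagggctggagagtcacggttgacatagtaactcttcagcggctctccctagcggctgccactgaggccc
Prox1: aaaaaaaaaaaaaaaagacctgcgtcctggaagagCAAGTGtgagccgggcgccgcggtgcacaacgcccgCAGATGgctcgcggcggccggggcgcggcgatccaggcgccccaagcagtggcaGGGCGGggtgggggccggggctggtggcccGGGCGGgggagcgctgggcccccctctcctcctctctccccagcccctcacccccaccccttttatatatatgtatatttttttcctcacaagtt
Dsp: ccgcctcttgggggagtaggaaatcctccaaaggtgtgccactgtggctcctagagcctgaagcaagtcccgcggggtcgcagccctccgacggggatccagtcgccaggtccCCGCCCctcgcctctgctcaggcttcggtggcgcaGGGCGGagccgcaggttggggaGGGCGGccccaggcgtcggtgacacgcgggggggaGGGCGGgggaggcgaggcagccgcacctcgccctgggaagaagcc
All 4 were richer in G and C than the median of 32851 promoter windows of the same length (52.4%), at 68.8% for C1ql2, 56.4% for Trpc6, 64.8% for Prox1 and 72.4% for Dsp. They held 20, 12, 20 and 22 CpG dinucleotides, against a median of 6. E-boxes numbered 1 in C1ql2, 2 in Prox1 and 0 in Trpc6 and Dsp, where 66.2% of all windows held at least 1. GC boxes numbered 2 in Prox1, 4 in Dsp and 0 in C1ql2 and Trpc6, where 32.7% of all windows held at least 1. The cyclic AMP response element TGACGTCA and the AP-1 sites TGACTCA or TGAGTCA, searched on both strands, had no match in these 4 windows, and 1.55% and 4.46% of all windows held them. TATAAA occurred in Prox1, on the reverse strand, and in 12.4% of all windows. A match is a description of letters and not a binding site.

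Other genes of each marker's family or pathway were set beside it. Among 10 EF-hand calcium-binding genes, which include Calb1, 8 were lower in PS19 than in WT and the median was -0.36. Calb2 (calretinin) marks mossy cells and immature granule neurons, though not these cells alone. It was covered by 937 (WT), 286 (PS19) and 960 (PS19 Zbp1+/-) reads, the same shape as Calb1. It was at -1.62 in PS19 against WT and at 1.77 in PS19 Zbp1+/- against PS19. Pvalb, the third buffer, was not low in PS19, with 567, 661 and 464 reads. Hippocalcin (Hpca), an abundant calcium sensor of hippocampal neurons, differed by -0.21 between PS19 and WT. The calmodulin gene Calm2 was at -0.64, from an FPKM of 888 to 568. S100b, an astrocyte gene of this list, was at 0.66. Relative to pan-neuronal genes 6 of the 10 were lower and the median was -0.05.

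The C1ql list held 14 genes with C1ql2 and C1ql3 themselves, the adhesion receptors they bind and the kainate receptor subunits they recruit. Of 13 genes compared, 9 were lower in PS19 than in WT with a median of -0.14, and the members C1ql2 and C1ql3 had the lowest values. That direction turned relative to pan-neuronal genes, where 10 of 13 were higher (median 0.17). C1ql1 was covered by 200 (WT), 224 (PS19) and 282 (PS19 Zbp1+/-) reads and differed by 0.14 between PS19 and WT. C1ql4 had 0 reads in every library. The receptor Adgrb3 had 1719, 1503 and 1770 reads and a difference of -0.16. The kainate receptor subunits Grik2 and Grik4 were at -0.08 and -0.06, and Nrxn3 at 0.30. The partners named here, like C1ql1, lay nearer to WT than C1ql2 and C1ql3 did under the deposited scaling. Relative to PS19, 10 of the 13 genes were higher with a median of 0.42, led by Nptxr at 1.02, and 6 of 13 were higher relative to pan-neuronal genes (median -0.08).

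Among the Trpc channel subunits compared, Trpc6 had the lowest difference of log2(FPKM + 1) in PS19 against WT. By read ratio the weakly expressed Trpc7 was lower, at 0.542 (0.355 to 0.815) on 70 and 38 reads, against 0.603 for Trpc6. On the log2 scale Trpc7 was at -0.39, Trpc4 at -0.35, Trpc1 at -0.17 and Trpc5 at 0.45. Trpc2 had 0 reads. The subunits parted further in PS19 Zbp1+/-: Trpc4 was covered by 904 (WT), 681 (PS19) and 1272 (PS19 Zbp1+/-) reads and stood 2.04-fold above PS19 (1.86 to 2.24), whereas Trpc6 stayed at 0.974. Trpc4, Trpc5 and Trpc7 were higher in PS19 Zbp1+/- than in WT, by 0.55, 0.85 and 0.41, where Trpc6 was at -0.61.

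The desmosome list was divided between its abundant and its weakly expressed genes. Of its 14 genes, 6 reached an FPKM of 1 in PS19 or PS19 Zbp1+/-, and 5 of these were lower in PS19 Zbp1+/- with a median of -0.17. The share of all genes that were lower was 46.3%. Only 4 of the list reached an FPKM of 1 in PS19 Zbp1+/-, so the genes that passed through PS19 alone could only count as lower. The median was -0.54 when corrected for GC content and length, -0.47 with TPM and -0.61 relative to pan-neuronal genes, with 6 of 6 lower under the last 2 scalings. Plakophilin 4 (Pkp4), the most abundant, was at 0.20, Pkp2 at -0.09 and plakoglobin (Jup) at -0.17, against -1.17 for Dsp. Periplakin (Ppl), a plakin like Dsp, was covered by 100 (WT), 165 (PS19) and 33 (PS19 Zbp1+/-) reads. Its ratio to PS19 of 0.218 (0.146 to 0.319) was below that of Dsp (0.309), although its difference of log2(FPKM + 1) was -0.87 at this low level. The desmosomal cadherin Dsg2 had 105, 93 and 31 reads and stood at a ratio of 0.364 to PS19 (0.234 to 0.552). Dsc1, Dsg3 and Pkp1 had 0 reads in every library.

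In the kynurenine pathway 1 of 13 genes, the aminotransferase Kyat1, reached an FPKM of 1, with 215, 270 and 229 reads. Tdo2 was the next by FPKM in WT and in PS19. The alternative first enzymes Ido1 and Ido2 had at most 4 and 33 reads in a library. The 3-hydroxyanthranilate dioxygenase Haao was covered by 3 (WT), 17 (PS19) and 2 (PS19 Zbp1+/-) reads. Apart from Kyat1, this pathway was near the limit of what these libraries could measure.

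**Figure D3:**
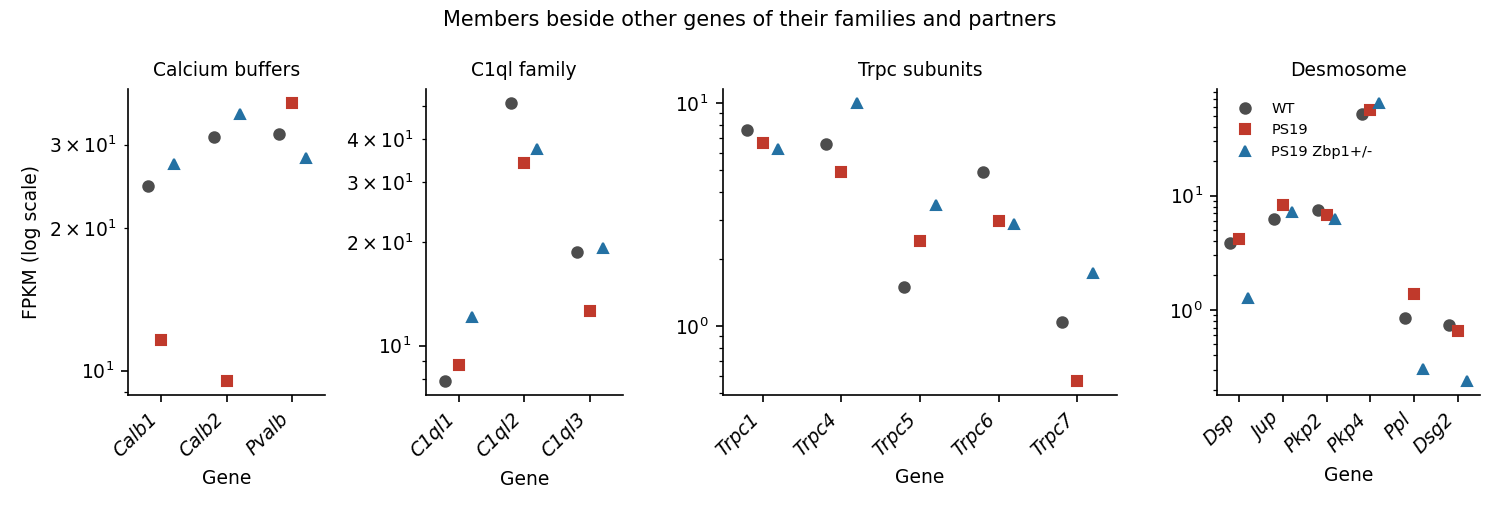
FPKM (log scale) in the WT, PS19 and PS19 Zbp1+/- libraries for Calb1, C1ql2, C1ql3, Trpc6 and Dsp beside other genes of their families or partners; each point is 1 library. Calb1 and Calb2 share the low PS19 point, and Dsp is low in PS19 Zbp1+/- as are the weakly expressed Ppl and Dsg2, while Jup, Pkp2 and Pkp4 lie closer to PS19.

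Another 12 genes known as granule neuron markers were examined to see which of the patterns they follow. This list was chosen with earlier results of these data known, so it is not an independent check. In PS19 against WT they were divided, with 7 of 12 lower and a median of -0.02. The share of all genes that were lower was 53.7%. Plk5, a polo-like kinase family member, was at -0.60 with 657 reads in WT and 419 in PS19. Glis3 was at 0.31. With TPM 3 of 12 were lower, and relative to pan-neuronal genes 2 of 12.

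All 12 of these genes were lower in PS19 Zbp1+/- than in PS19 under the deposited scaling, with TPM, with total reads, after correction for GC content and length, and relative to pan-neuronal genes. The median was -0.51, and 46.3% of all genes were lower. One of the 12, the lactase gene Lct, was at least 2-fold lower (592 reads in PS19 and 211 in PS19 Zbp1+/-, ratio 0.389, interval 0.331 to 0.456). Sema5a, an axon guidance semaphorin, was at -0.81, and Dock10, a guanine nucleotide exchange factor, at -0.78. Fam163b was the least changed at -0.01. Against WT all 12 were lower as well, with a median of -0.58 where 49.0% of all genes were lower, and Plk5 (-1.03) and Lct (-1.07) were past 2-fold. Prox1 and Dsp thus followed the direction of this list in PS19 Zbp1+/- against PS19 and against WT. C1ql2 (-0.43) and Trpc6 (-0.61) followed it against WT. Calb1 and C1ql3 did not under the deposited scaling, but were at -0.07 and -0.18 against WT relative to pan-neuronal genes.

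Markers of neighbouring cells moved in other ways. The 8 CA1 pyramidal genes were lower in PS19 than in WT in 8 of 8 (median -0.28), though in 4 of 8 relative to pan-neuronal genes. Relative to PS19, 7 of 8 were higher in PS19 Zbp1+/- (median 0.88; 6 of 8 under each of the 4 other scalings), with Fibcd1 the highest (2220 and 8364 reads, ratio 4.12), Mpped1 at 1.59 and Pou3f1 at 1.06. Their summed FPKM was 174 (WT), 127 (PS19) and 313 (PS19 Zbp1+/-), where that of the 12 other granule markers was 135, 122 and 95.1. That sum was carried by Fibcd1 and Mpped1. Wfs1 was highest in WT (2537, 1775 and 1678 reads), and Lefty1, named after its values were seen, was lowest in PS19 Zbp1+/- (176, 145 and 105 reads). Calb1 is also made in CA1, and the part of CA1 RNA in the Calb1 reads was not tested.

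The 12 interneuron genes, a second possible source of Calb1 and Prox1, had a median of 0.11 in PS19 against WT (8 higher) and 0.04 in PS19 Zbp1+/- against PS19 (6 higher). The latter was -0.24 with TPM (4 higher) and -0.45 relative to pan-neuronal genes (2 higher). Their summed FPKM was 825 (WT), 623 (PS19) and 819 (PS19 Zbp1+/-), and none was at 0 reads. That sum was carried by Sst (315, 201 and 257) and Cck (241, 143 and 292), so its low value in PS19 does not describe the list. The pan-neuronal genes were lower in PS19 than in WT in 10 of 10 (median -0.26) and higher in PS19 Zbp1+/- than in PS19 in 10 of 10 (median 0.46), though in 7 and 9 of 10 with TPM. Glial lists went the opposite way: the 8 oligodendrocyte genes were at a median of 0.81 and -1.40, and the 8 astrocyte genes at 0.56 and -0.61, in the same comparisons.

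**Figure D4:**
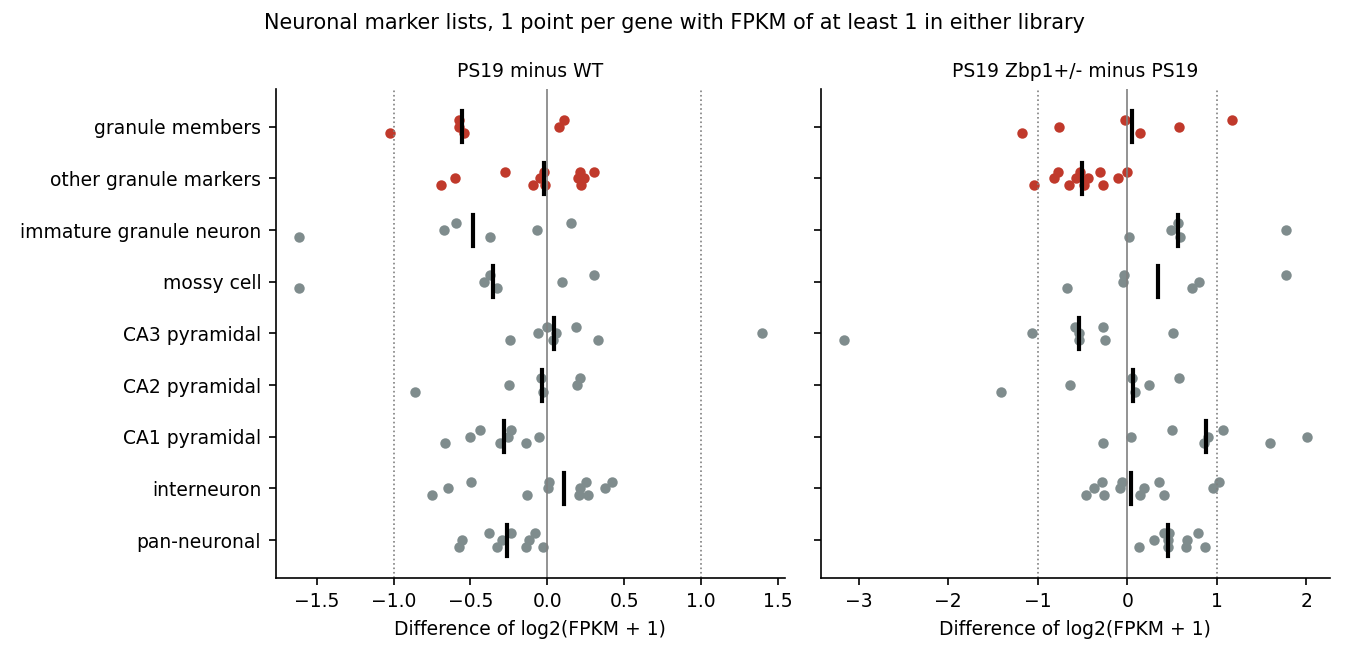
Difference of log2(FPKM + 1) for genes of 9 neuronal marker lists, PS19 minus WT on the left and PS19 Zbp1+/- minus PS19 on the right; each point is a gene that reached an FPKM of 1 in a library compared, the bar is the list's median, and the dotted lines mark 2-fold. In the right panel the 12 other granule markers all lie at or below 0 (median -0.51) and the CA1 genes mostly above it (median 0.88).

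Immature granule neurons and mossy cells share the dentate gyrus with mature granule neurons. Of the 8 immature genes, 5 of 6 compared were lower in PS19 than in WT, with a median of -0.48, where 53.7% of all genes were lower. Igfbpl1 reached an FPKM of 1 in WT alone, so it could only count as lower. Neurod1, a transcription factor of differentiating granule neurons, was covered by 351 (WT), 203 (PS19) and 300 (PS19 Zbp1+/-) reads, and Sox11 had 328, 221 and 361. Both were low in PS19 alone, as Calb1 was. Dcx, the usual marker of newborn neurons, and Eomes were named after their values were seen. Dcx had 272, 250 and 235 reads and a difference of -0.07. Igfbpl1 (60, 21 and 7 reads) and Eomes (41, 12 and 0 reads) were lowest in PS19 Zbp1+/-. The mossy cell list without Calb2 was mixed, with Ajap1 at -0.38 and 0.80, Drd2 at -0.41 and -0.05, and Sv2b at -0.33 and 0.72 in the comparisons of PS19 with WT and of PS19 Zbp1+/- with PS19. The others, Csf2rb2 (0.30 and -0.68) and Calcrl (0.10 and -0.03), named after their values were seen, went the other way in the first of these.

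Genes that respond to neuronal activity, though not in granule neurons alone, were set beside Calb1. Calbindin is known to fall with raised activity in seizure models. All 12 were lower in PS19 than in WT (median -0.35), where 53.7% of all genes and 10 of 10 pan-neuronal genes were lower. With TPM 11 of 12 were lower, and relative to pan-neuronal genes 9 of 12. Npy is also among the interneuron genes here. Whether activity differed in granule neurons, or bears on Calb1, was not tested. Fosb, whose product represses Calb1 in such models, was covered by 394 (WT), 287 (PS19) and 306 (PS19 Zbp1+/-) reads. Bdnf was at -0.52, Junb and Npy at -0.50 each, and Pdyn, the dynorphin gene of granule neurons, at -0.50 with 268, 176 and 111 reads. The list was divided in PS19 Zbp1+/- against PS19, with 6 of 12 higher (1 of 12 relative to pan-neuronal genes), Nptx2 at 1.26, Fos at -0.93 and Npas4 at -0.87.

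The members' median profile was at -0.54 in PS19 and -0.43 in PS19 Zbp1+/-, both against WT. The 5 genes nearest to it among 8430 candidates, by Euclidean distance over these differences in 3 libraries, were Naa38, Uqcrq, Ltk, Sem1 and Ypel3, at distances of 0.0126 to 0.0167 log2 units. No 1 marker had this profile in full, since the median came from C1ql3 in PS19 and from C1ql2 in PS19 Zbp1+/-.

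Length and base composition moved with the libraries. Genes in the shortest of 5 length groups had a median difference of -0.21 between PS19 and WT, and those in the longest 0.13. Between PS19 Zbp1+/- and PS19 the medians ran from -0.14 for the genes poorest in G and C to 0.25 for the richest. Genes in the same group of length and base composition as Calb1 had medians of -0.07 and -0.13 in these comparisons, and those in the group of Dsp 0.18 and 0.15. The group of Calb1 held 319 and 327 genes in these comparisons, and that of Dsp 248 in the latter. A median over so many genes lies near equality whatever single genes do, so these medians do not set Calb1 or Dsp apart. Scaling mattered more for the small differences: TPM moved the median of all genes compared by over 0.1, to 0.11 in PS19 against WT and -0.25 in PS19 Zbp1+/- against PS19, and scaling by pan-neuronal genes moved it to 0.25 and -0.43.

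**Figure D5:**
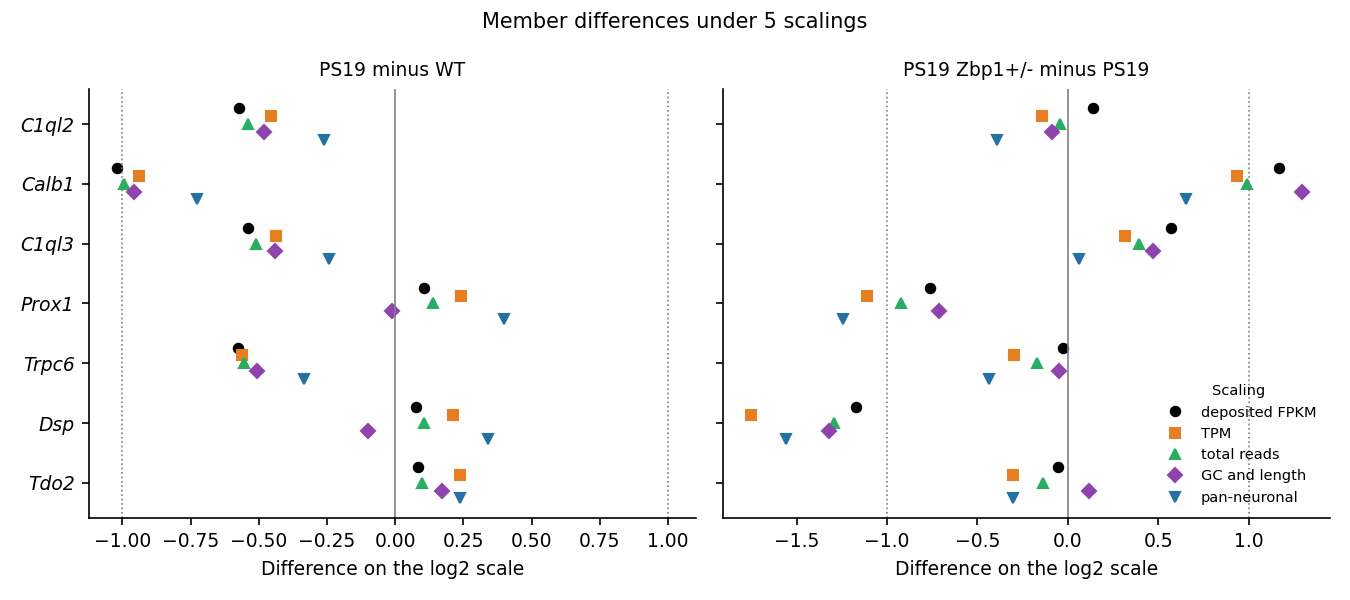
Log2 difference of each marker under 5 scalings (symbols), PS19 minus WT on the left and PS19 Zbp1+/- minus PS19 on the right; dotted lines mark 2-fold. Calb1 stays below 0 on the left and above 0 on the right under all 5 (-0.73 and 0.65 at the smallest), and C1ql2 changes side on the right.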

How the data were processed

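Hippocampal RNA of 3 libraries, 1 per genotype, was measured by RNA-seq. The authors deposited 1 table of FPKM values for 54532 genes; the unit follows from the file's title and from the values. Trim Galore 0.6.5, STAR 2.5.3a, featureCounts 2.0.4 and the build mm39 are named in the submitters' processing notes, yet gene positions in the deposited table were those of GENCODE M21 (GRCm38) for 98.3% of 54409 shared gene IDs and for all 7 markers, so GRCm38 is given. RNA was extracted with TRIzol and libraries made with an NEB Next Ultra kit, per the labels' protocols.

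Multiplying FPKM by gene length gave whole multiples of a common step for 100% of values (tolerance 0.01 read, or 0.01% above 100 reads), which gave whole reads and implied library sizes of 17253479 (WT), 17287957 (PS19) and 15826984 (PS19 Zbp1+/-). Library totals and counting intervals set the precision. Differences are of log2(FPKM + 1), over the protein-coding genes that reached an FPKM of 1 in a library compared; 1 log2 unit (2-fold) was the threshold, and no p-value was computed. Read ratios per library size carry exact Clopper-Pearson 95% intervals, and levels exact Poisson intervals. GC content came from the longest GENCODE transcript, in 10 bins of GC content and 5 of length.

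Genes named were the 7 markers, any gene of the lists of families, pathways, activity genes and other granule markers, up to 3 genes of each cell type list with the largest difference in a comparison, the 5 genes nearest to the median profile, and genes that check the labels. The markers and lists were chosen with earlier results of these data known. Alternatives were pseudocounts of 0.1 and 0.5, no filter, a mean FPKM of at least 5, TPM, total reads, read ratios with at least 3 reads, GC and length correction, thresholds of 1.5-fold and 4-fold, and leaving out a marker; scaling by pan-neuronal genes was chosen after seeing the data. Read recovery, calls and intervals were tested on simulated data. Scripts ran under Python 3.11.15 with pandas 2.3.3, scipy 1.17.1, numpy 2.4.6 and, for figures, matplotlib 3.10.9. Sequences are RefSeq promoters of GRCm38.p6.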

Additional observations from a re-analysis of the deposited data

How the results depend on the processing

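No replicate could be left out, and no paired analysis was possible because each genotype had 1 library. The median of the 7 markers was -0.54 in PS19 against WT. It was -0.24 relative to pan-neuronal genes, and -0.56 to -0.23 without 1 marker. In PS19 Zbp1+/- against PS19 it was -0.03, and became 0.36 with a mean FPKM of at least 5 (4 markers left), -0.30 with TPM and -0.39 relative to pan-neuronal genes. In PS19 Zbp1+/- against WT it was -0.43, and became -0.20 with a mean FPKM of at least 5, -0.60 with TPM, -0.59 with total reads and -0.66 relative to pan-neuronal genes, and ran from -0.52 to -0.20 without 1 marker. The stricter filter left fewer markers. TPM, total-read and pan-neuronal scaling each multiply a library by 1 factor, which moved every marker of a comparison in the same direction. Why these factors differ between libraries was not tested.

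The count of markers past 2-fold in PS19 against WT was 1 (2.50% of all genes compared). It was 0 with TPM (5.98%), total reads (2.60%), GC and length correction (2.68%) or pan-neuronal scaling (4.25%), and 0 at 4-fold (0.307%). In PS19 Zbp1+/- against PS19 it was 2 (7.16%), and 1 with a mean FPKM of at least 5 (5.56%) or total reads (7.86%), and 0 at 4-fold (0.893%). With TPM (15.2%) or pan-neuronal scaling (12.8%) it was also 2, but Prox1 took the place of Calb1. In PS19 Zbp1+/- against WT it was 1 (3.35%), and 0 with a mean FPKM of at least 5 (2.17%) or at 4-fold (0.482%), and 3 at 1.5-fold (13.8%). Of 180 values of single markers under the alternatives, 132 stayed within the counting interval, 48 moved by more, and 0 past 2-fold changed sign. The 132 include the values without a filter and with a mean FPKM of at least 5. Those settings change only which genes are kept, so a single marker could not move there. The 132 are thus not a measure of robustness. Of 21 marker differences, 14 kept their direction under each alternative run. Of 12703 genes compared, 280 were higher and 37 lower in PS19 than in WT (2.50%), against 774 and 109 of 14770 with TPM (5.98%). Of 12772 genes, 255 were higher and 659 lower in PS19 Zbp1+/- than in PS19 (7.16%), against 233 and 2008 of 14753 (15.2%). TPM values were larger than FPKM values, so the same pseudocount of 1 and minimum of 1 weighed less there. With a pseudocount of 0.1 on FPKM the counts were 541 and 101 in the first comparison and 430 and 1184 in the second. At these depths differences of Tdo2, with 56 reads or fewer, could not be resolved.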

Other observations

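The remaining pyramidal fields were examined with lists of CA3 and CA2 genes. The 8 CA3 genes had a median of 0.05 in PS19 against WT and of -0.54 in PS19 Zbp1+/- against PS19, where 7 of 8 were lower, as they were under the 4 other scalings run. The share of all genes that were lower was 46.3%. In PS19 Zbp1+/- 7 of the 8 reached an FPKM of 1, and the remaining gene could only count as lower. Bok, a Bcl2 family member abundant in CA3, was covered by 1693 (WT), 1426 (PS19) and 864 (PS19 Zbp1+/-) reads, and Coch had 176, 185 and 56. Prkcd, a gene shared with thalamus, had 780, 2211 and 148 reads. Grik4 went the other way at 0.51. In the CA2 list Pcp4, a calmodulin-binding peptide, had 256, 251 and 76 reads and was at -1.42 in PS19 Zbp1+/- against PS19, whereas Rgs14 was at 0.58. The 8 thalamus and striatum genes had medians of 0.16 and -0.63 in these comparisons; Tcf7l2 had 149, 582 and 64 reads. Whether the dissected region differed between libraries was not tested.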
